A study of Mus musculus with 4 samples.

Results

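Sema3b and 9 further genes of semaphorin signalling were followed in activated mouse B cells: the semaphorins Sema4a, Sema4d and Sema7a, the neuropilins Nrp1 and Nrp2, and the plexins Plxna1, Plxnb2, Plxnc1 and Plxnd1. They were chosen by name, with the measured genotype difference of Sema3b and its relatives already in view. Every array probe that carries the older or current symbol of a member was taken. The set thus comprises 10 genes of the 29870 genes named on the array, and 14 probes of 39429. All 14 probes passed the filter on dim probes and were tested, as were 15967 genes in all.

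Semaphorins are secreted or membrane-bound guidance proteins that were first studied in growing axons and also act on adhesion and migration of immune cells. Plexins are their signalling receptors, and secreted class 3 semaphorins such as Sema3b usually need a neuropilin as co-receptor, since they bind plexins only weakly on their own. In lymphoid tissue Sema4d, also called CD100, binds CD72 on B cells, Sema4a acts on T cells, and Sema7a is a membrane-anchored ligand of Plxnc1 and of β1 integrins.

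The cells were B cells purified with magnetic beads from spleens of male mice and kept in culture for 3 days. They were stimulated through their antigen receptor (anti-IgM, 10 µg/mL) and through CD40, the receptor for a signal from helper T cells (anti-CD40, 10 µg/mL). Donors were C57BL/6 mice (labelled WT, aged 77 and 74 days) or mice deficient in Ackr4 (labelled Ackr4ko, aged 73 and 71 days), a scavenging receptor for chemokines. Each of 2 independent experiments with different donors gave 1 array per genotype, so that each group has 2 replicates, and all cultures were stimulated, with no resting cells analysed here. How the Ackr4 allele was made and how many mice went into a culture are not given in the sources used here.

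The labels of the arrays carry a doubt that touches every direction below. Each column of the authors' deposited value table matched the scanner file of the opposite genotype from its own experiment (SD of the log2 difference 0.0204 to 0.12 over 16265 probes) better than the scanner file of its own sample (SD 0.451 to 0.554). Both probes for Ackr4 were well above background on 0 of 4 arrays, so the deleted gene could not settle which is right. Values carry the scanner files' labels, and every genotype direction turns round if the value table is labelled correctly. The array labelled WT of experiment 2 stood apart, with 6.24% of spots flagged as outliers against 1.79% to 2.12% on the other arrays and 42.3% of probes well above background against 49.5% to 54.9%. Levels are log2 of the processed signal, scaled to the 75th percentile of each array, and say nothing about one probe relative to another.

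The identity of the probes that carry the main differences is shown by 30 bases of each. The Sema3b probe lies on the minus strand at chr9:107500686-107500745 (mm9), the Sema7a probe on the plus strand at chr9:57810607-57810666, the Nrp1 probe on the plus strand at chr8:131026650-131026709 and the Plxnb2 probe on the minus strand at chr15:88985981-88986040. Sema4d is added because its pair of probes gave different results. They lie 15.2 kb apart, at chr13:51796617-51796676 for the first and chr13:51781462-51781521 for the second, both on the minus strand. All are written 5′ to 3′ as on the array, and capitals mark AATAAA, the usual polyadenylation signal.
Sema3b: ctaaagtaacgcAATAAAcacattatcagc
Sema7a: atgtaacatattactAATAAAcaagctatt
Nrp1: ttgtggatggtgtaaagttgaaaaaagata
Plxnb2: gaccacccaccctttttgtaaatcgtgatt
Sema4d, first probe: gaaaagtacccaAATAAAccagaagcttta
Sema4d, second probe: aacgcacagcacctactgcaccaagctatt
AATAAA was found in 5 of the 14 member probes and in 12.6% of all probes on the array (4.0% held its reverse complement). No other probe of the array (0) shared a run of 20 bases with any of the 14 member probes. Whether these probes lie in coding sequence or in an untranslated region was not analysed here.

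Sema3b, a secreted ligand, was bright on the arrays labelled Ackr4ko and near background on the arrays labelled WT. Its log2 level was 12.78 and 13.08 on the arrays labelled Ackr4ko of experiments 1 and 2, and 5.54 and 5.73 on those labelled WT. On the linear scale these are signals of 7020 and 8650 against 46.6 and 53.2. All 4 spots were well above background on each array labelled Ackr4ko, against 3 of 4 spots on the WT array of experiment 1 and 0 of 4 on that of experiment 2. The groups lay far apart and each pair of replicates lay close together (12.93 ± 0.21 against 5.64 ± 0.14, mean ± SD, n = 2). The difference was 7.24 in experiment 1, a 151-fold higher signal, and 7.35 in experiment 2. There the WT array was not well above background, and with its own signal as the limit the fold was at least 163. The mean difference was 7.29 with a standard error of 0.33. It was 5.79 after normexp background correction, 7.21 with quantile normalization and 7.28 with median scaling, so these folds depend on the background correction. Of the 4 arrays the order was Ackr4ko of experiment 2, Ackr4ko of experiment 1, WT of experiment 2 and WT of experiment 1, and the WT arrays differed by less than the SD over their spots (0.38 and 0.27). Sema3b rests on 1 probe.

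**Figure D1:**
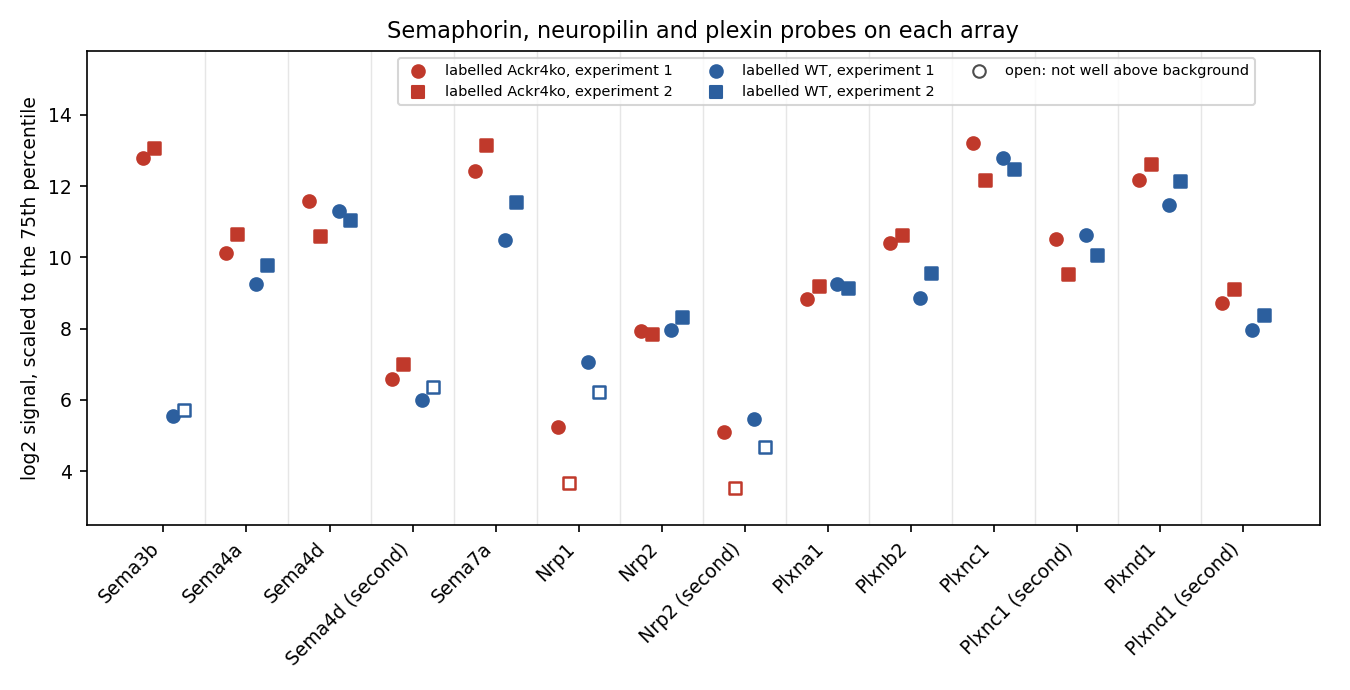
Log2 signal scaled to the 75th percentile for the 14 probes of the 10 genes on each of the 4 arrays; red is labelled Ackr4ko, blue labelled WT, circles are experiment 1 and squares experiment 2, and open symbols were not well above background. The 2 red Sema3b symbols lie at 12.78 and 13.08, the 2 blue ones at 5.54 and 5.73, and levels of different probes are not comparable.

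Sema7a, a membrane-anchored ligand, was the next largest difference upward. Its log2 level was 12.43 and 13.15 on the arrays labelled Ackr4ko against 10.50 and 11.55 on those labelled WT, with every spot well above background. The groups did not overlap, although experiment 2 was brighter within each genotype. The signal was 3.82-fold higher in experiment 1 and 3.03-fold higher in experiment 2, a mean log2 difference of 1.77 with a standard error of 0.44.

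Sema4a, a membrane-bound ligand, had log2 levels of 10.11 and 10.67 on the arrays labelled Ackr4ko against 9.26 and 9.79 on those labelled WT. The groups did not overlap and the size was alike in both experiments, 1.81-fold and 1.85-fold (mean log2 difference 0.87, standard error 0.37). Sema4d, the ligand of CD72, gave no such order with its brighter probe: 11.58 and 10.61 on the arrays labelled Ackr4ko lay on either side of 11.31 and 11.04 on those labelled WT. The difference was 0.27 in experiment 1 and -0.43 in experiment 2, and its mean of -0.08 was smaller than its standard error of 0.40.

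Among the co-receptors, Nrp1 was dimmer on the arrays labelled Ackr4ko. Its log2 level was 5.24 and 3.68 there against 7.05 and 6.23 on the arrays labelled WT. Only experiment 1 measured it, since its spots were well above background on both arrays of experiment 1 (4 of 4 spots each) and on neither array of experiment 2 (0 of 4 spots each). In experiment 1 the signal labelled WT was 3.52-fold that labelled Ackr4ko, a log2 difference of -1.82. The value for experiment 2, -2.55, compares 2 signals not well above background and gives no fold. The mean of both, -2.18 with a standard error of 0.53, became -0.85 after normexp background correction and -1.41 without the Ackr4ko array of experiment 2.

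Nrp2, the other neuropilin, differed little with its brighter probe: 7.94 and 7.84 on the arrays labelled Ackr4ko against 7.96 and 8.32 on those labelled WT. The groups did not overlap, but the difference was -0.03 in experiment 1 and -0.47 in experiment 2, and the mean of -0.25 was below its standard error of 0.33.

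Of the plexins, Plxnb2, a receptor of class 4 semaphorins, showed the largest difference. Its log2 level was 10.39 and 10.63 on the arrays labelled Ackr4ko against 8.85 and 9.55 on those labelled WT. The lowest array labelled Ackr4ko stood above both arrays labelled WT. The signal was 2.91-fold higher in experiment 1 and 2.13-fold higher in experiment 2 (mean log2 difference 1.31, standard error 0.36).

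Plxnd1, known as a receptor of Sema3e, had log2 levels of 12.17 and 12.61 on the arrays labelled Ackr4ko against 11.47 and 12.13 on those labelled WT. These groups did not overlap either, although the nearest arrays nearly met, with 1.63-fold and 1.39-fold higher signals in the experiments (mean log2 difference 0.59, standard error 0.37). Plxna1, which pairs with neuropilins, read 8.83 and 9.20 against 9.26 and 9.15, with differences of -0.43 and 0.05. Plxnc1, the plexin that binds Sema7a, read 13.22 and 12.18 against 12.78 and 12.49, with differences of 0.43 and -0.31. In Plxna1 and Plxnc1 the genotypes overlapped, and the mean differences of -0.19 and 0.06 were below their standard errors of 0.33 and 0.41.

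**Figure D2:**
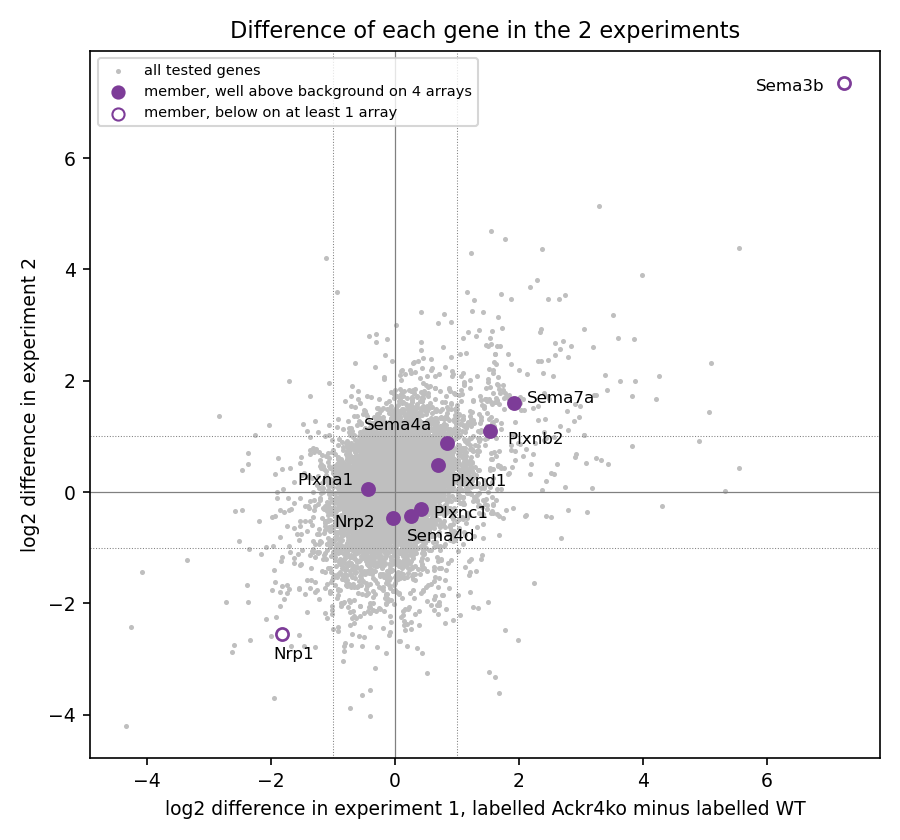
Log2 difference labelled Ackr4ko minus labelled WT in experiment 1 (horizontal) and experiment 2 (vertical) for all 15967 tested genes in grey and the 10 members in purple, open where at least 1 array was not well above background; dotted lines mark 2-fold. Sema3b lies at 7.24 and 7.35, apart from the other members, which lie between -2.55 and 1.93.

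Because the genotype difference chose these genes, their counts are a description. In the limma fit without a block, 1 of the 10 members (Sema3b) had a Benjamini-Hochberg adjusted p under 0.05, against 2 of all tested genes (0.0125%). With the experiment as a block, which pairs the 2 arrays of an experiment, 4 members were called (Sema3b, Sema7a, Plxnb2 and Nrp1) against 532 of all tested genes (3.33%). With the block limma gave all genes 1 variance (infinite prior degrees of freedom). With the block and quantile normalization the prior was 2.83 degrees of freedom and 0 genes were called, members included, with 1445 at an unadjusted p under 0.05. At least 2-fold higher in both experiments were 3 members (1.28% of all tested genes) and 1 member, Nrp1, had values at least 2-fold lower (0.514%), although both of its signals in experiment 2 were not well above background. The groups did not overlap for 5 members that were higher on the arrays labelled Ackr4ko (19.0% of all tested genes) and 2 that were lower (10.0%). The median difference of the 10 members was 0.32, beside 0.08 for all tested genes, and the latter was -0.04 in experiment 1 and 0.23 in experiment 2. An exact permutation test of 2 arrays against 2 cannot go below p = 0.333.

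Of the 10 members, 6 had 1 probe and 4 had a pair. The probes of Plxnd1, 0.5 kb apart, gave like differences, 0.70 and 0.77 in experiment 1 and 0.48 and 0.74 in experiment 2. The probes of Plxnc1, 3.5 kb apart, gave opposite signs in experiment 1 (0.43 and -0.13) and the same sign in experiment 2 (-0.31 and -0.54). For Nrp2, 21.8 kb apart, the dimmer probe gave -0.36 in experiment 1 and was not well above background on either array of experiment 2. For Sema4d the probes differed most: the second probe, designed on a predicted transcript variant, was higher on the arrays labelled Ackr4ko in both experiments (6.60 and 7.01 against 5.99 and 6.36). Its difference was 0.61 in experiment 1. In experiment 2 the WT array was not well above background, and with its own signal as the limit the fold was at least 1.57. The mean difference of the second Sema4d probe exceeded that of the first by 0.71. Over the spots of a member probe on 1 array, the SD of log2 signal had a median of 0.08 and reached 0.50 in probes below background.

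The experiments differ in donors and in cultures, which cannot be told apart here. A comparison of the experiments did not choose the genes. With genotype as a term in limma, 650 of all tested genes (4.07%) differed between experiment 2 and experiment 1 at a Benjamini-Hochberg adjusted p under 0.05, and 1 of the 10 members did. In this fit too limma gave all genes 1 variance (infinite prior degrees of freedom). The standard error is therefore the same for every gene and does not measure the spread of that gene's own replicates. Nrp1 fell by 1.19 on the log2 scale (standard error 0.35, limma adjusted p = 0.0225), lower in experiment 2 within each genotype. Both arrays of experiment 2 were not well above background, so Nrp1 passed the filter only through experiment 1, and the bound is at least 1.66-fold higher in experiment 1. The call was lost with quantile normalization (limma adjusted p = 0.321), with an intensity trend (0.0672), without the genotype term (0.597) and with normexp background correction (0.991, difference -0.01). Sema7a was 0.89 higher in experiment 2 (limma adjusted p = 0.139), and passed the threshold with an intensity trend (0.0332). The other 8 members had limma adjusted p values of 0.327 to 0.901, among them Sema3b with a difference of 0.25 (standard error 0.35, adjusted p = 0.782).

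The 3 tested genes whose levels over the 4 arrays lay nearest to those of Sema3b, by Euclidean distance of log2 values centred per gene, were Il6 (distance 2.82), a cytokine, Cdkn1a (3.32), an inhibitor of cyclin-dependent kinases, and Iqcf5 (3.71). Il6 read 8.52 and 9.65 on the arrays labelled Ackr4ko against 2.98 and 5.27 on those labelled WT. Each of the 3 was well above background on both arrays labelled Ackr4ko and on neither labelled WT, so that the signal was at least 18.6-fold higher for Il6, at least 14.9-fold for Cdkn1a and at least 7.29-fold for Iqcf5. They lie on chromosomes 5, 17 and 9. The distances use signals of the WT arrays below background, and with a gene that differs so much between genotypes this measure picks genes with a large genotype difference.

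Sema3b lies on the chromosome that also carries Ackr4, with 3.5 Mb between their probes. Within 200 kb of the Sema3b probe 13 other genes were tested, all well above background on the 4 arrays. Their mean differences ran from -0.52 for Cyb561d2 to 0.83 for Nprl2, and 0 of the 13 reached 2-fold with 1 sign in experiments 1 and 2. The nearest, Ifrd2 at 5.4 kb, gave -0.02 and 0.83, and Gnai2 at 16.2 kb on the other side gave 0.25 and 0.44. This window does not reach Ackr4, and the genes farther out on the chromosome were not read as a set here. Iqcf5, outside the window on the same chromosome, was at least 7.29-fold higher on the arrays labelled Ackr4ko.

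**Figure D3:**
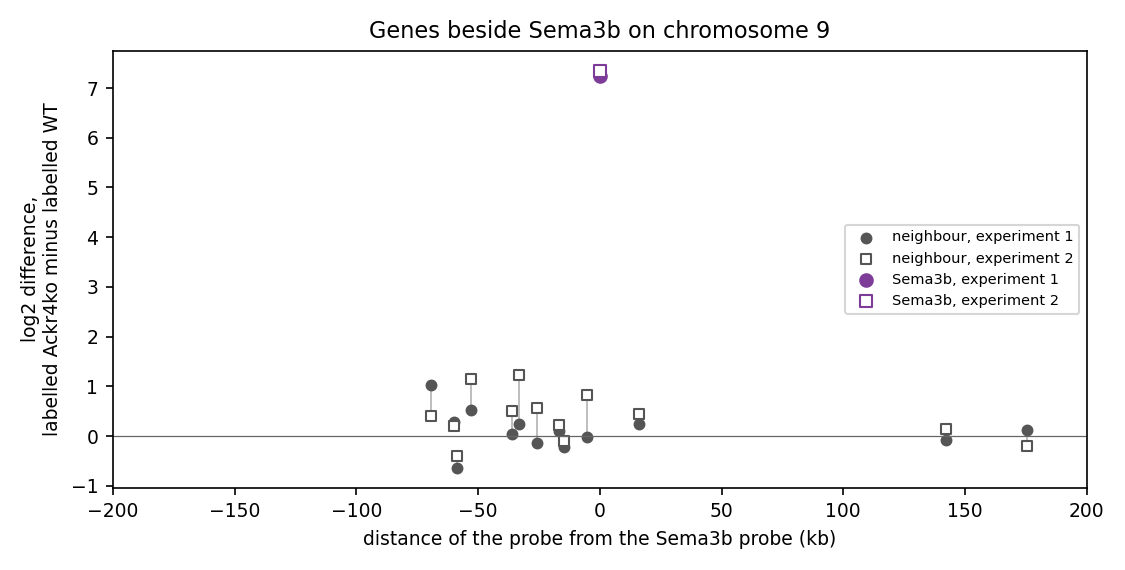
Log2 difference labelled Ackr4ko minus labelled WT in each experiment for Sema3b (purple) and the 13 tested genes within 200 kb (grey), against the distance of the probe from the Sema3b probe in kb. Sema3b lies above 7 in both experiments, and the mean differences of its neighbours lie between -0.52 and 0.83.

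The wider pathway was read from 6 lists put together by function, holding 84 genes of which 50 were tested. In the limma fit without a block 0 of the 50 were called at a Benjamini-Hochberg adjusted p under 0.05, and 5 had an unadjusted p under 0.05, as had 4.58% of all tested genes. With the experiment as a block 4 were called, where 3.33% of all tested genes were: Vegfa and Rhod higher, Sema4b and Fes lower on the arrays labelled Ackr4ko. Rhod passed the filter on dim probes only through the arrays labelled Ackr4ko, and with quantile normalization the block gave 0 calls over all genes. The values of these 4 also differed at least 2-fold in each experiment, beside 1.28% of all tested genes higher and 0.514% lower.

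Of 16 other semaphorins, 4 were tested and 10 were not well above background on any array, and the median difference of the 4 was -0.19. Sema4b, a membrane-bound semaphorin, read 8.08 and 6.26 on the arrays labelled Ackr4ko against 9.53 and 8.09 on those labelled WT. Within each experiment it was lower on the array labelled Ackr4ko (-1.45 and -1.83, mean -1.64, standard error 0.64), but the arrays of the genotypes lay next to each other, with the Ackr4ko array of experiment 1 at nearly the level of the WT array of experiment 2. The other tested semaphorins, Sema4c, Sema6c and Sema6d, had mean differences of -0.20, -0.06 and -0.18. Of 5 other plexins 1 was tested, Plxna3, with differences of 0.65 and 0.90 and no call in either fit.

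Vegfa, which binds neuropilins as well as its own receptors, was the largest difference among the neuropilin ligands outside the semaphorins, of which 3 of 6 were tested (median 0.36). It read 9.95 and 9.45 on the arrays labelled Ackr4ko against 6.53 and 7.61 on those labelled WT, without overlap (differences 3.42 and 1.84, mean 2.63, standard error 0.43). Vegfb differed by 0.36 (standard error 0.35). The limma adjusted p of Vegfa was 0.191 without the block and 1.54e-11 with it. The latter value rests on a variance shared by all genes (infinite prior degrees of freedom). It does not measure the spread of Vegfa's own replicates. With the block and quantile normalization the prior was 2.83 degrees of freedom, and 0 genes were called, Vegfa included.

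Of 13 other semaphorin receptors and co-receptors 7 were tested and 0 called in either fit, with 0 of the 7 at an unadjusted p under 0.05, as the lowest was 0.224 (limma). Cd72, the B cell receptor of Sema4d, read 14.87 and 14.91 on the arrays labelled Ackr4ko against 15.21 and 14.80 on those labelled WT. Timd2, which binds Sema4a, had a mean difference of 0.57 (standard error 0.44), and Itgb1, the β1 integrin chain that binds Sema7a, had -0.27 (standard error 0.32). Among 7 proteases that cleave semaphorins or their relatives 4 were tested and 0 called (lowest unadjusted limma p 0.343), with Adam10 at -0.34 and Adam17 at -0.19.

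Downstream, 31 of 37 genes of plexin and neuropilin signalling were tested, with a median difference of 0.06. Rhod, a small GTPase that binds plexins, read 5.75 and 8.16 on the arrays labelled Ackr4ko and was not well above background on either array labelled WT (3.01 and 4.61), so that its signal was at least 4.23-fold higher. Fes, a tyrosine kinase that acts downstream of plexins, read 9.48 and 8.42 against 10.65 and 9.83 (differences -1.16 and -1.41, mean -1.29, standard error 0.45).

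**Figure D4:**
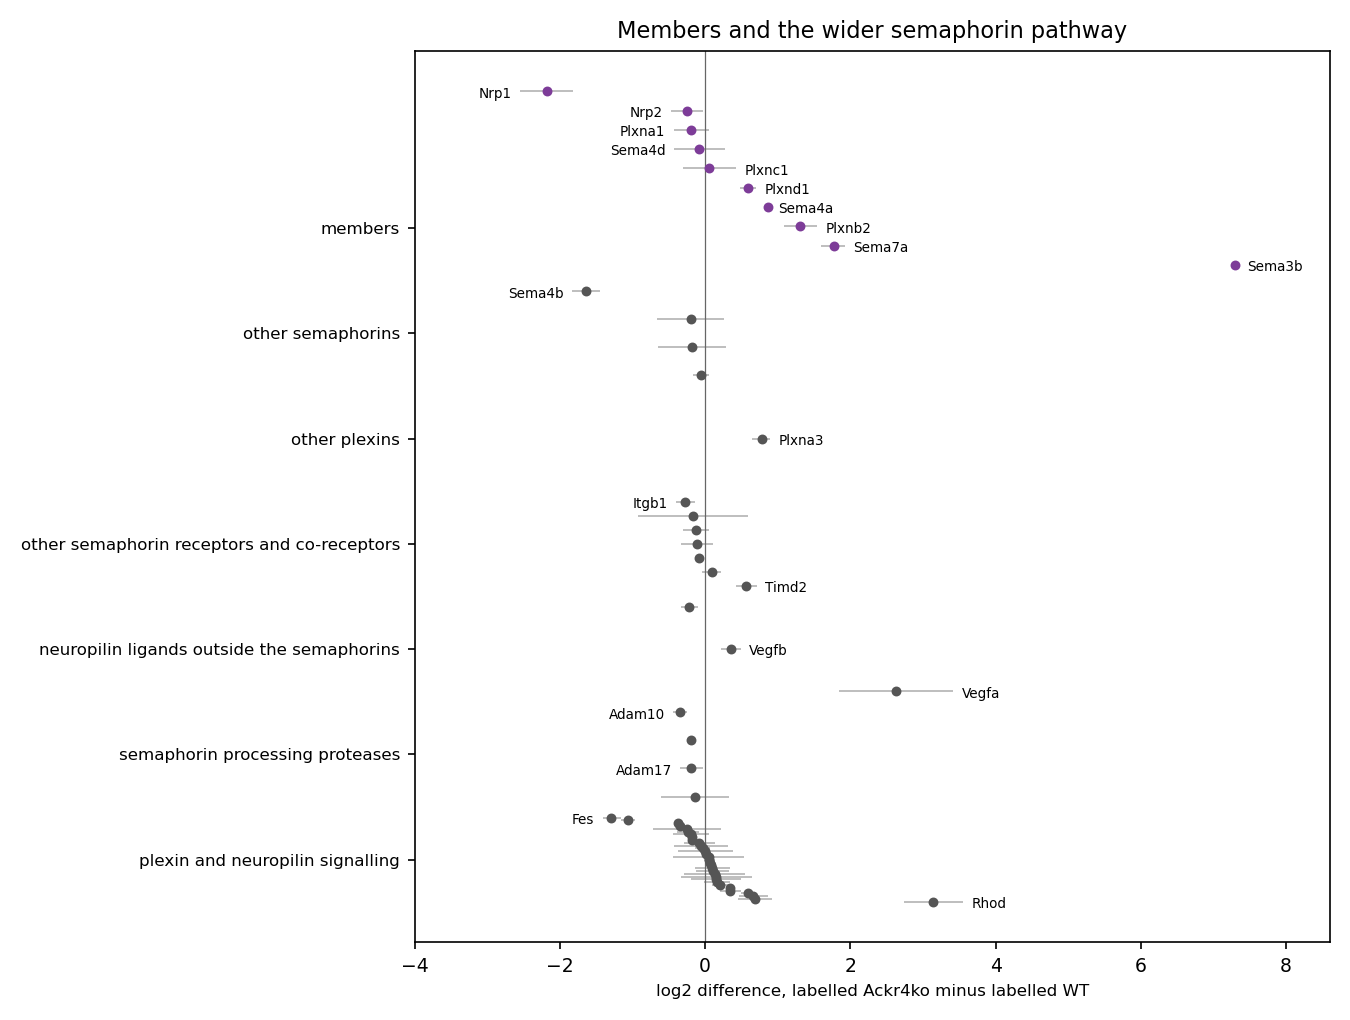
Mean log2 difference labelled Ackr4ko minus labelled WT (points) for the 10 members and the tested genes of the 6 pathway lists. Grey bars run from the difference in 1 experiment to that in the other. Names are given for the members and the genes that the naming rule took from each list, not for Cd72, Sema4c, Sema6c and Sema6d. Vegfa at 2.63 and Rhod at 3.14, the latter against WT arrays not well above background, lie above, Sema4b at -1.64 and Fes at -1.29 below.

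Markers of B cells and of other spleen cells were read from lists. All 11 B cell markers were well above background on all 4 arrays, with summed signals of 317000 to 354000 on the arrays labelled Ackr4ko and 389000 to 423000 on those labelled WT. Of the 11, 2 were higher and 3 lower in both experiments. Such sums of linear signal rest mostly on the brightest genes of a list. For B cells these were Cd79b (17.05 and 17.01 against 17.41 and 17.34) and Ms4a1 (16.72 and 16.91 against 17.16 and 17.14). Of 9 conventional dendritic cell markers 5 were well above background on each array labelled Ackr4ko and 3 on each labelled WT, with summed signals of 47400 to 81600 and 42900 to 57100. These sums rested mostly on Ccr7, which read 15.15 and 16.15 on the arrays labelled Ackr4ko against 15.23 and 15.67 on those labelled WT. Its differences were -0.07 and 0.48. Flt3 and Zbtb46, also well above background on all 4 arrays, had mean differences of 1.07 and 1.00. Batf3 and Fscn1 were well above background on both arrays labelled Ackr4ko and on 0 arrays labelled WT. Their signals were at least 2.99-fold and at least 2.78-fold higher on the former. They passed the filter only through those arrays. Itgax was well above background on 0 arrays. Summed macrophage and monocyte signals were 29200 to 38200 on the arrays labelled Ackr4ko and 48000 to 50200 on those labelled WT. Of the 5 tested genes of that list 2 were higher and 2 lower in both experiments, among them Cd68 with a mean difference of 0.51 and Mpeg1 with -0.78. Plasmacytoid dendritic cell signals summed to 195000 to 200000 and 240000 to 259000. This sum rested mostly on Ly6d and on 1 probe of Siglech. Ly6d read 16.84 and 16.64 on the arrays labelled Ackr4ko against 17.34 and 17.24 on those labelled WT. The Siglech probe read 15.66 and 16.03 against 15.87 and 15.83, and the other Siglech probes were well above background on 0 arrays. Cox6a2 and Bst2 of this list went the other way from the sum. Cox6a2 read 9.58 and 6.66 on the arrays labelled Ackr4ko against 5.70 and 4.65 on those labelled WT. On the WT array of experiment 2 Cox6a2 was not well above background. It was called by limma with the block only, and Bst2 had a mean difference of 0.61. T cell markers summed to 3420 to 4920 and 3610 to 4620. Of the 10 genes in this list, 8 were well above background on either array of experiment 1. In experiment 2 the WT array had 5 and the Ackr4ko array 6. Cd3d, Cd3e, Cd3g, Cd4 and Foxp3 were well above background on all 4 arrays, and Cd8a on 0 arrays. Cd4 was the brightest (10.64 and 11.25 against 10.83 and 10.93). Endothelial and stromal markers summed to 6010 to 7250 and 7410 to 7540. Kdr was the brightest of the endothelial and stromal markers (12.38 and 12.73 against 12.69 and 12.68). The part of these cells in the differences of Sema3b and the other members was not tested. In RNA of a whole culture, fewer cells of a kind and less RNA per cell cannot be told apart.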

How the data were processed

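Total RNA of cultured B cells (50 ng) was hybridised to Agilent 1-colour arrays. The authors deposited scanner files with spot intensity, written by Agilent Feature Extraction 10.7.3.1 according to the file headers, and a value table of normalized intensity whose making is not given in the sources used here. Its columns share a median of 67 and a 75th percentile of 1500. Scale and centring were read from its match to the scanner files, and its direction stays unknown. Probe positions are on mm9, per the file headers. All 4 arrays lay on 1 slide with 1 scan session, so neither slide nor scan session could be tested as a batch.

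Processed signal of each array was put on the log2 scale and its 75th percentile subtracted, and a constant of 9.88 was added back. Control spots and outlier spots were left out, and the 4 spots per probe were averaged. A probe was well above background on an array with at least 50% of its spots so flagged, and was tested with at least 2 such arrays. A gene is given by its brightest tested probe. Of the probes, 28322 were named through RefSeq accessions in a GRCm38.p6 gene table, 429 through other accessions, 3075 through symbols and 221 through synonyms, and 7382 kept the name of the array design. Where a signal was not well above background, a fold is a lower bound, in which the bright mean is set against, per dim array, the higher of the probe's own signal and the lowest signal well above background.

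The genotype test used lmFit and eBayes of limma 3.58.1 (R 4.3.3) without a block and was two-sided, and a gene was called at an adjusted p (Benjamini-Hochberg) under 0.05. It was tested on simulated data. The series description states 2 experiments, so equal replicate numbers pair arrays. The deviations from the group means of arrays from 1 experiment correlated at 0.42 across 15967 genes. Named were all 10 members, from each pathway list the called genes or else the 2 with the largest difference of the same sign in both experiments, the 3 nearest to Sema3b, and Ackr4; Cd72, Sema4c, Sema6c, Sema6d, the genes beside Sema3b and single marker genes were named after their values were seen. The members and lists were chosen with earlier results of these data known. Replicates are separate cultures, and 2 per group limit the precision. Alternatives were quantile and median scaling, normexp (offset 50), other filters, the mean of probes, an intensity trend, the block, leaving out arrays and the value table.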

Additional observations from a re-analysis of the deposited data

Results flagged for a closer look

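In 3 of the 10 members the genotype difference had opposite signs in the 2 experiments, with 1 array per genotype in each, so that the change between experiments was not tested. The log2 difference in experiment 1 minus that in experiment 2 was -0.48 for Plxna1, 0.74 for Plxnc1 and 0.70 for Sema4d. For Plxnc1 the second probe gave the same sign in both experiments (-0.13 and -0.54), as did the second probe of Sema4d (0.61 and 0.65).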

How the results depend on the processing

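The difference of Sema3b was 7.29 and ran from 7.14 to 7.44 when 1 array was left out, fell to 5.79 with normexp background correction, and was -7.16 in the authors' value table under its own labels (7.16 with the direction turned). Over 12 alternatives from the scanner files and the turned value table (11 for Sema3b and Nrp1), 8 members kept the sign of their difference throughout, while Plxnc1 kept it in 7 of 12 and Sema4d in 9 of 12. Part of this count was fixed in advance. The block cannot move a mean difference here, nor can other filters or the mean of probes for a gene with 1 probe. Where the groups did not overlap, leaving out 1 array could not change the sign. Of the members' values, Nrp1 became -0.85 with normexp and Nrp2 -0.50 with the mean of its probes.

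In limma, 2 genes were called between genotypes. The count was 1 with quantile normalization, 19 with normexp, 0 without the filter on dim probes (296 at an unadjusted p under 0.05), 0 for probes well above background on all 4 arrays (526), and 1 to 122 with 1 array left out, the highest without WT replicate 2 and 24 without WT replicate 1. The replicate block gave 532, and 4 rather than 0 in the pathway lists. With the block and quantile normalization together, chosen after seeing the data, it was 0 (1445 at an unadjusted p under 0.05). Between experiments 650 genes were called, but 0 with quantile normalization (2320 had an unadjusted p under 0.05), 0 when the genotype term was dropped (1565) and 11098 without the filter. Genes that reached 2-fold with 1 sign in experiments 1 and 2 numbered 286, and 115 with normexp, 450 without the filter (211 higher, 239 lower) and 138 above background on all 4 arrays. The cause of these shifts was not tested. Leaving out an array was not run for the count between experiments, which then has no residual degrees of freedom, or for the 2-fold count, which needs both pairs. Signal near background limits Nrp1 and the dim probes of Nrp2 and Sema4d.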
